A study of Mus musculus with 12 samples.

Results

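RGS proteins are regulators of G-protein signalling. The 9 genes of the set described here were chosen as a family whose levels had been seen to differ between the groups of this study. They are Rgs1, Rgs2, Rgs3, Rgs10, Rgs12, Rgs14, Rgs16, Rgs18 and Rgs19. On the array 24 genes were counted as RGS genes by name, these 9 and also Rgs7bp and Rgs9bp, named for binding RGS proteins, included. The 9 genes were measured by 17 of the 55681 probes, of which 12 probes for 8 of the 9 genes passed a filter on low signal. The genes were selected on the processed signal of their probes, relative to each array's 75th percentile, over all 4 groups. Their values are therefore given as a description with no p-value, and nothing is supported by them.

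RNA of RAW264.7 cells, a mouse macrophage line, was measured on 12 1-colour Agilent arrays in 4 groups of 3, named NS, HS, NS+LPS and HS+LPS. HS cells were given 40 mM extra NaCl for 24 h, NS+LPS cells 10 ng/ml LPS for 24 h, and HS+LPS cells both. LPS, lipopolysaccharide, is a bacterial cell wall component that macrophages sense through TLR4. The labels do not spell out NS and HS, which were read as medium without and with the added NaCl. All groups share the same cell line, so the data describe 1 line. Whether replicates were separate cultures is not said in the labels, so p-values below reflect only how far these samples lie from each other, and that spread may be technical.

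RGS proteins speed up the hydrolysis of GTP by G alpha subunits and so shorten the signal of G-protein-coupled receptors. In macrophages these receptors sense chemokines, complement fragments, lipid mediators, adenosine and prostaglandins. Small RGS proteins such as Rgs1, Rgs2 and Rgs16 consist of little more than the RGS domain, while Rgs12 and Rgs14 carry further domains that bind inactive G alpha and Ras-like proteins.

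The probes of the genes that differed most and of Rgs8, the neighbour of Rgs16, show what was detected. The first 30 bases of each are given 5′ to 3′ in lower case, with no part marked, and the coordinates are those of the whole probe on mm9. Rgs1 was read at chr1:146091962-146092021 (minus strand), Rgs2 at chr1:145848830-145848889 (minus), Rgs16 at chr1:155592244-155592303 (plus) and Rgs8 at chr1:155544738-155544795 (plus).
Rgs1 probe: cccttggataaccagtccaaaagtatatag
Rgs2 probe: atcctcggttcttggagtccgaattctacc
Rgs16 probe: gagagaactcttttaagtataatattgtgt
Rgs8 probe: tcactcacctttactatacacaggctgtga

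Promoter windows of Rgs16, which was higher with LPS, and of Rgs2 and Rgs10, which were lower with it, are shown because these genes moved in opposite directions. Each holds the 250 bases before the RefSeq start on GRCm38.p6, written 5′ to 3′ on the gene's strand, at chr1:153740103-153740352 (plus) for Rgs16, chr1:144004150-144004399 (minus) for Rgs2 and chr7:128418173-128418422 (minus) for Rgs10. Capitals mark matches, on either strand, to a loose NF-kB pattern (GGG, a spacer of 5 bases, then CC) or to TGACG, the core of the cAMP response element (CRE). Overlapping matches run together.
Rgs16 promoter: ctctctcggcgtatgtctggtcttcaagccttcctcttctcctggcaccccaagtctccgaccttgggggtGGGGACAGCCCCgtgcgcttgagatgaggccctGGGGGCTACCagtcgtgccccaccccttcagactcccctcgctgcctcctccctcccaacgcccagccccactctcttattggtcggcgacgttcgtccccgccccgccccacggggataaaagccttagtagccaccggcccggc
Rgs2 promoter: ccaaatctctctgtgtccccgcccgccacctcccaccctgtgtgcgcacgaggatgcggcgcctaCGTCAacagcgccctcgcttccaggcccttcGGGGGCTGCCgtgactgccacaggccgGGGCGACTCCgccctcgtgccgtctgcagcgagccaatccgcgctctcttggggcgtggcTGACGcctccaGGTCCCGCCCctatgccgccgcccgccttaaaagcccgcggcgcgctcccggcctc
Rgs10 promoter: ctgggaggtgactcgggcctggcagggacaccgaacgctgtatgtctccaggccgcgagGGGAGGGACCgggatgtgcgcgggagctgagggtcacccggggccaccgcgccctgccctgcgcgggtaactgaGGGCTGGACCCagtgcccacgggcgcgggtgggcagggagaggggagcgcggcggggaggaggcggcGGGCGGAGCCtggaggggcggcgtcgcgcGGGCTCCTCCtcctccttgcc

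The NF-kB pattern matched 5 times in the Rgs16 window, 3 times in that of Rgs2 and 5 times in that of Rgs10. It is common, as 45.8% of the 32851 RefSeq windows of this length hold it, as do 8 of the 10 windows listed for 6 of the 9 genes. TGACG, with 17.8% of all windows, was found in 2 of the 10, for Rgs2 and Rgs12. TGACGTCA, the full CRE that contains TGACG (1.55% of windows), the interferon response element (GAAA, any 2 bases, GAAA; 2.98%) and TGGAAA, the core of the tonicity element (18.6%), were in 0 of the 10. The AP-1 pattern TGANTCA (6.75%) was in 1 window of Rgs12, and TATAAA (12.4%) in 2 windows of Rgs3. These matches describe letters in the windows and were not related to the signal.

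On chromosome 1 the genes are grouped. Rgs2, Rgs13, Rgs1, Rgs21 and Rgs18 follow each other with no other protein-coding gene between them, and on mm9 the probes of Rgs2 and Rgs18 lie 751.3 kb apart. Rgs8 and Rgs16 are also direct neighbours, with probes 47.5 kb apart. The other probes that stood for members were at chr4:62363993-62364052 (Rgs3), chr7:135517256-135517315 (Rgs10), chr5:35376032-35376091 (Rgs12), chr13:55485762-55485821 (Rgs14), chr2:181423128-181423187 (Rgs19) and chr1:146600137-146600196 (Rgs18), all mm9.

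The arrays differed in brightness and in slide. The 75th percentile of the signal averaged 725 ± 74.0 for NS and 634 ± 21.5 for HS arrays, and 628 ± 6.84 for NS+LPS and 428 ± 15.3 for HS+LPS arrays (SD, n = 3 each), and 44.2 to 50.1% of probes were above background by group. NS, HS and NS+LPS replicates 1 and 2 were on 1 slide and NS+LPS replicate 3 on another. The HS+LPS arrays shared a slide with none of the other groups and were scanned on a different day. So the slide, the scan day and the treatment cannot be told apart in any difference that involves HS+LPS. Of 9 macrophage markers on the array, 8 were above background on all 12 arrays and Mertk on none. Of 46 markers of 10 other cell types, 9 were above background on all 12 arrays and 24 on none. Among them Siglech, known from plasmacytoid dendritic cells, lay between 6.34 and 6.52 in every group. Pf4, a platelet gene, had group means of -2.58 (NS), -5.17 (HS), -2.85 (NS+LPS) and -5.03 (HS+LPS), and Dcn, a fibroblast gene, of -3.55, -6.41, -3.22 and -5.72. Both were lower with salt. Lck, a kinase gene known from T cells, was above background on all 12 arrays, at 1.71, 1.69, 3.48 and 3.64. Camp, a neutrophil gene above background on 6 arrays, was at -4.88, -4.65, -3.02 and -3.93, so both were higher with LPS. The other tested genes of their lists were not. Cd3e and Elane gave 0.08 and 0.15 for LPS without added salt (limma adjusted p = 0.29 and 0.387). With added salt they gave -0.48 and -0.37 (limma adjusted p = 5.35e-05 and 0.0351). Cd4 gave 0.12 and 0.00 (limma adjusted p = 0.6 and 0.991). Of the 14 other-cell markers tested, 1 rose and 3 fell with salt without LPS, 1 and 5 with salt with LPS, 3 and 1 with LPS without added salt, and 2 and 4 with LPS with added salt (limma). At the same threshold (adjusted p under 0.05), 37.0%, 57.5%, 63.7% and 72.3% of all genes rose or fell. The part of these markers in the results below was not tested. In RNA from whole cultures, fewer cells of a kind and less RNA per cell cannot be told apart.

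Values below are log2 signals relative to the array's 75th percentile. They compare arrays for 1 probe, not probes with each other, and differences carry the standard error (SE) of a limma fit over all 12 arrays. Genes with an adjusted p under 0.05 are termed called (Benjamini-Hochberg over the 13860 genes tested).

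**Figure D1:**
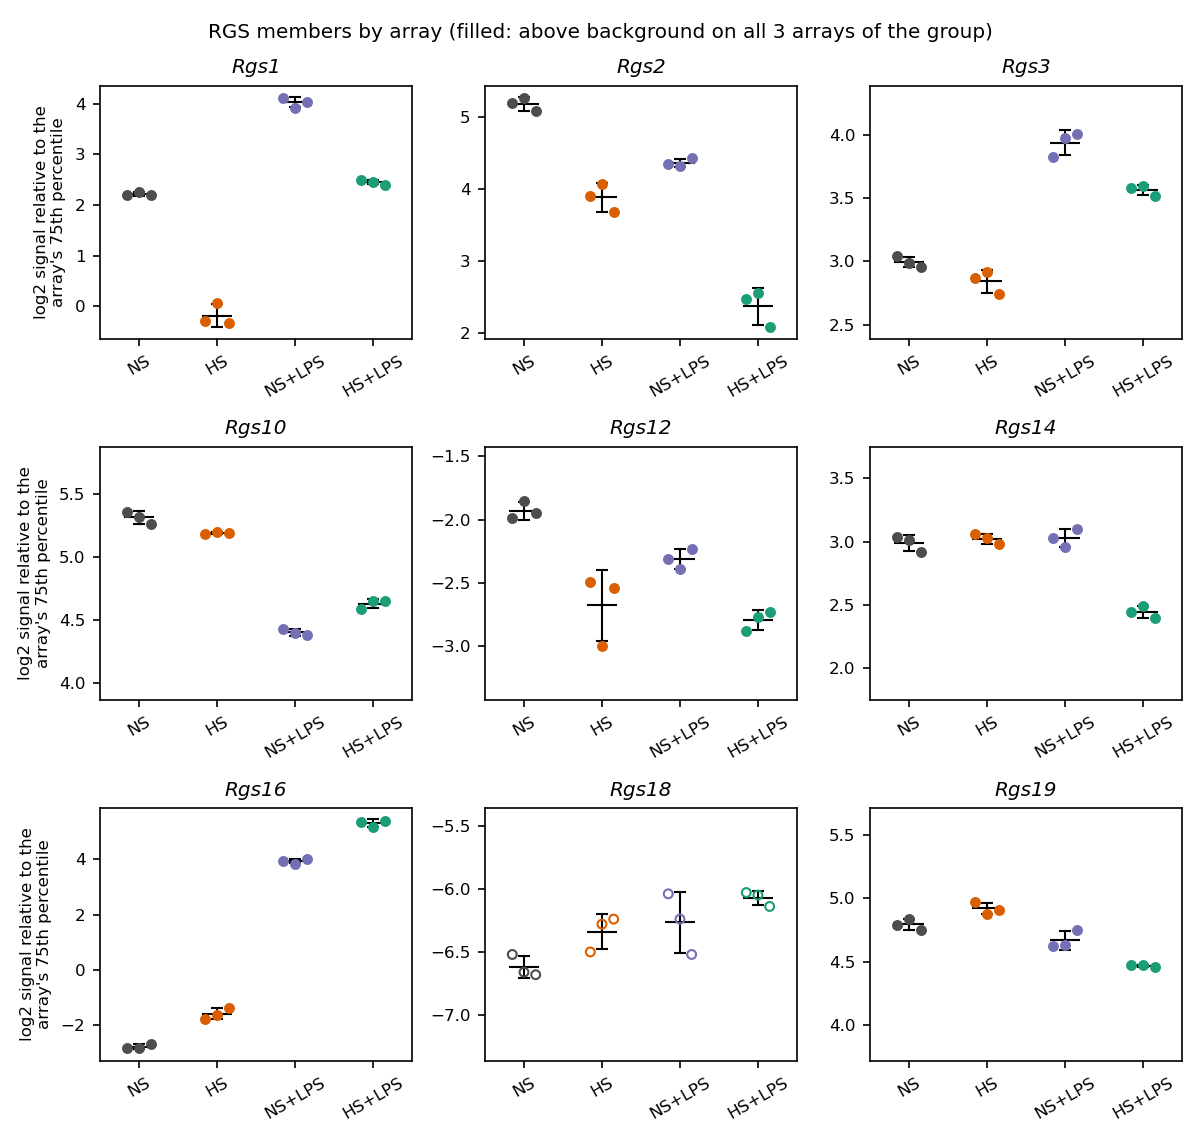
Log2 signal relative to the array's 75th percentile (vertical axes, which differ between panels) for the 9 genes on the 3 arrays of each group; long bars are means, whiskers SDs, and open points mark groups not above background on all 3 arrays. Rgs1 and Rgs2 were lower with added salt in both pairs, Rgs16 was lowest in NS and highest in HS+LPS, and Rgs18 was open in every group.

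Rgs16 encodes a small regulator of Gi and Gq signalling. Its values were -2.84, -2.82 and -2.67 in NS, -1.76, -1.62 and -1.36 in HS, 3.95, 3.85 and 4.01 in NS+LPS, and 5.37, 5.16 and 5.41 in HS+LPS. The 4 groups kept this order with no overlap between any of them. LPS went with a level 105-fold higher without added salt (log2 difference 6.72, SE 0.10) and 119-fold higher with it (6.89, SE 0.10). On the shared slide alone the difference without added salt was 6.68, and with normexp background correction over all arrays it was 5.94. Added salt went with a level 2.29-fold higher without LPS (1.20, SE 0.10) and 2.59-fold higher with LPS (1.37, SE 0.10). Over the alternative ways of processing, the log2 difference for salt ran from 0.84 to 1.29 without LPS and from 1.24 to 1.45 with it. The salt differences with and without LPS differed by 0.17 (SE 0.15), and with normexp by 0.40, which was called.

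Rgs1 limits signalling from chemokine receptors in leukocytes. It was at 2.20, 2.26 and 2.19 in NS, -0.30, 0.07 and -0.34 in HS, 4.11, 3.92 and 4.04 in NS+LPS, and 2.49, 2.46 and 2.40 in HS+LPS. HS was lowest, NS+LPS highest, and HS+LPS lay just above NS with no overlap. Salt and LPS thus went in opposite directions. With salt the level was 5.29-fold lower without LPS (-2.40, SE 0.097) and 2.97-fold lower with it (-1.57, SE 0.097). With LPS it was 3.50-fold higher without added salt (1.81, SE 0.097; 1.80 on the shared slide alone) and 6.23-fold higher with it (2.64, SE 0.097). The salt difference was smaller with LPS, by 0.83 (SE 0.14).

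Rgs2 acts mainly on Gq, the class of G alpha that activates phospholipase C beta. Its values were 5.20, 5.27 and 5.09 in NS, 3.90, 4.08 and 3.68 in HS, 4.35, 4.32 and 4.43 in NS+LPS, and 2.47, 2.56 and 2.08 in HS+LPS. Every group was separate, from NS at the top through NS+LPS and HS to HS+LPS. Salt went with a 2.46-fold lower level without LPS (-1.30, SE 0.13) and a lower one with LPS too (-2.00, SE 0.13). LPS went with a 1.76-fold lower level without added salt (-0.82, SE 0.13) and a 2.86-fold lower one with it (-1.52, SE 0.13). Rgs2 and Rgs1, which lie 243.1 kb apart by their mm9 probes, both were lower with salt and differed in direction with LPS. The salt differences of Rgs2 differed by -0.70 (SE 0.18). A second, dim Rgs2 probe was above background on 3 NS arrays, 1 HS array and 0 of the LPS arrays. It was at least 1.62-fold lower in NS+LPS than in NS, against measured means of -4.89 and -3.71. With both probes averaged, the salt difference with LPS was -1.17 and the interaction of Rgs2 was -0.20, no longer called. An interaction here is the salt difference with LPS minus that without. The bound sets the mean of the brighter group against the higher, per array, of the dim probe's own signal and the lowest signal among probes above background.

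Rgs3 regulates Gi and Gq and has long and short forms. It was at 3.04, 2.99 and 2.96 in NS, 2.87, 2.92 and 2.74 in HS, 3.83, 3.98 and 4.01 in NS+LPS, and 3.58, 3.60 and 3.52 in HS+LPS. LPS groups were higher than groups without it, and in each pair the salt group was a little lower, without overlap. The LPS difference was 0.94 without added salt and 0.72 with it, and the salt difference -0.15 without LPS and -0.37 with it (SE 0.060 each). A second probe of the same transcript gave 0.76 and 0.65 for LPS and -0.09 and -0.20 for salt (SE 0.065 each). A probe for another Rgs3 transcript was above background on 0 of 12 arrays, and the last of the 4 Rgs3 probes did not pass the filter.

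Rgs18, a regulator known from platelets and megakaryocytes, was above background on 0 of 12 arrays, with signals from -6.68 to -6.03. Its level can be given only as not well above background. It is the only one of the 9 genes with no passing probe.

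Rgs10 is a short RGS protein abundant in immune cells. Its values were 5.36, 5.32 and 5.26 in NS, 5.18, 5.20 and 5.19 in HS, 4.43, 4.40 and 4.38 in NS+LPS, and 4.59, 4.65 and 4.65 in HS+LPS. Groups with LPS were lower, by -0.91 without added salt and -0.56 with it (SE 0.037 each). The salt difference was -0.12 without LPS and 0.22 with LPS (SE 0.037 each), so its sign changed, by 0.35 (SE 0.053). Its call without LPS was lost in 9 settings, among them the fits without NS replicate 1 (-0.10) or 2 (-0.12) or any 1 of HS replicates 1 (-0.12), 2 (-0.13) and 3 (-0.12).

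Rgs12 and Rgs14 are multidomain proteins with a GoLoco motif, which holds Gi subunits in their GDP-bound form. Rgs12 was at -1.99, -1.85 and -1.95 in NS, -2.49, -3.00 and -2.54 in HS, -2.31, -2.39 and -2.23 in NS+LPS, and -2.88, -2.77 and -2.73 in HS+LPS. NS was highest, and HS and HS+LPS overlapped. The salt difference was -0.74 without LPS and -0.48 with it, and the LPS difference -0.38 without added salt and -0.12 with it (SE 0.12 each). With normexp background correction the salt difference with LPS was -0.11 and not called. The LPS call without added salt was lost with normexp (-0.17) and without NS replicate 2 (-0.34) or NS+LPS replicate 2 (-0.34). Without HS replicate 2 the LPS difference with added salt was -0.28 and was called. Its other probes did not pass the filter.

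Rgs14 was at 3.04, 3.01 and 2.92 in NS, 3.06, 3.03 and 2.98 in HS, 3.03, 2.96 and 3.1 in NS+LPS, and 2.44, 2.49 and 2.40 in HS+LPS. The first 3 groups overlapped and HS+LPS alone was lower. Salt without LPS gave 0.03 and LPS without added salt 0.04, whereas salt with LPS gave -0.59 and LPS with added salt -0.57 (SE 0.050 each). The interaction was -0.62 (SE 0.070). All of the difference of Rgs14 thus sits in the group that cannot be told apart from its slide.

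Rgs19, also named GAIP, binds Gi class subunits. Its values were 4.79, 4.84 and 4.75 in NS, 4.97, 4.88 and 4.91 in HS, 4.62, 4.63 and 4.75 in NS+LPS, and 4.47, 4.47 and 4.46 in HS+LPS. The 4 group means spanned 0.45, the narrowest range of the 8 genes, and NS and NS+LPS met at 4.75. The LPS difference was -0.13 without added salt and -0.45 with it (SE 0.044 each). For salt with LPS its 3 probes disagreed, at -0.20, 0.12 and -0.11, and their mean of -0.06 was not called. Its call for salt without LPS (0.13) was lost in 19 settings, among them the removal of any 1 of the 12 arrays but NS+LPS replicate 3. For LPS without added salt it was lost in 8, among them the fits without NS replicate 1 (-0.13) or 2 (-0.10) or NS+LPS replicate 1 (-0.10) or 2 (-0.11).

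**Figure D2:**
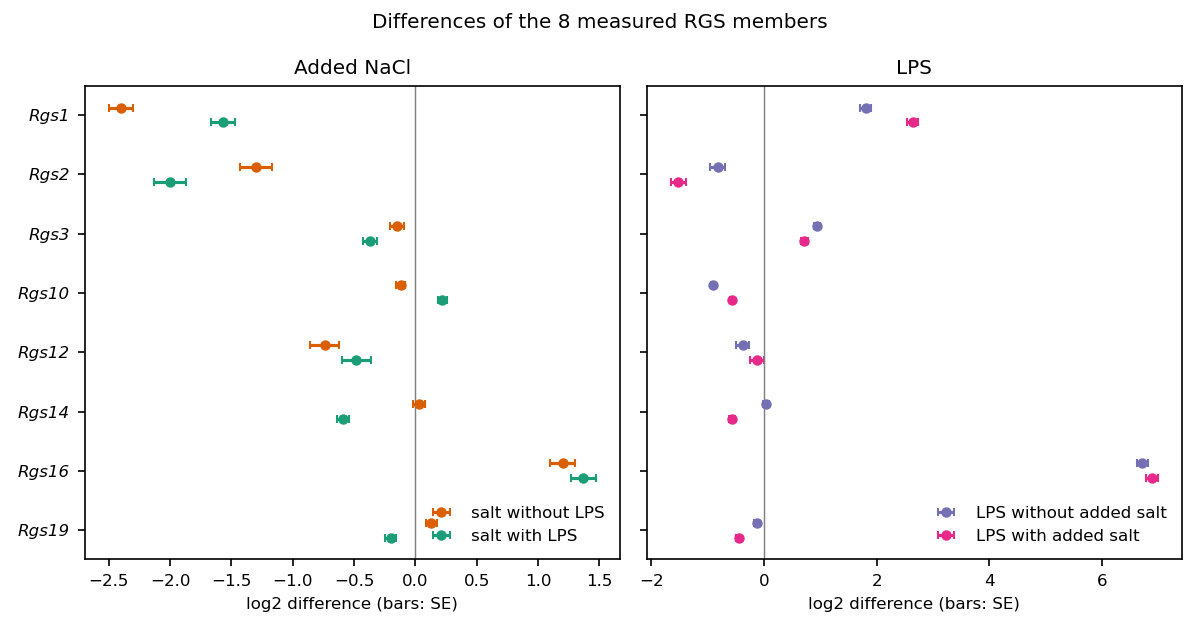
Log2 differences (horizontal axes) of the 8 measured genes for added NaCl, left, and LPS, right; points are limma estimates from 3 arrays per group and bars are SEs. Rgs1 and Rgs2 lay farthest left for salt, and Rgs16 lay far from the other genes for LPS, at 6.72 and 6.89.

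Over the 8 measured genes, salt without LPS gave 2 called higher and 4 called lower, where 18.2% and 18.8% of all genes were called higher and lower (37.0% in either direction). Salt with LPS gave 2 higher and 6 lower, where 26.2% and 31.4% of genes were called so (57.5% in all). LPS without added salt gave 3 higher and 4 lower, against 28.6% and 35.1% (63.7% in all), and LPS with added salt 3 and 4, against 30.5% and 41.8% (72.3% in all). The interaction was called for 5 of the 8, with 2 above 0 and 3 below, where 17.4% and 18.8% of genes were called so (36.2% in all). Because these contrasts chose the genes, the counts are not read against those shares. The groups of 3 arrays did not overlap for 7, 8, 7 and 7 of the 8 genes in the same order of comparisons, where 50.4%, 64.2%, 69.6% and 74.9% of genes did not overlap. The median absolute difference of the 8 genes was 0.45, 0.53, 0.86 and 0.65, beside 0.16, 0.24, 0.31 and 0.40 over all genes. The overlap counts and these medians also come from the values that chose the genes. They too are not read against those of all genes. The comparisons share groups of arrays and are not independent of each other.

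The genes varied among themselves. The range of the 4 group means was 8.09 for Rgs16, 4.21 for Rgs1, 2.82 for Rgs2, 1.09 for Rgs3, and 0.45 to 0.91 for the others. Over the 12 arrays, which share the 4 groups, Pearson's r was 0.87 between Rgs1 and Rgs3, 0.09 between Rgs1 and Rgs2, and -0.94 between Rgs10 and Rgs16. Among the 13859 other genes, those most like Rgs16 over the 12 arrays were Spp1 (osteopontin), with r = 0.999, Pign (0.999), an enzyme of GPI anchor synthesis, and Gsdmd (0.998), which encodes the pore-forming gasdermin D. Those most like Rgs1 were Klf6 (0.997), a zinc finger transcription factor, C3ar1 (0.995), the receptor for complement C3a, and Tmem230 (0.995). Those most like Rgs2 were Gm3448 (0.993), Osbpl1a (0.991) and Itgax (0.991), which encodes CD11c. With 4 groups behind 12 arrays, such values mainly describe the order and spacing of the group means.

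The other 15 genes counted as RGS genes by name, Rgs7bp and Rgs9bp included, lie outside the set. Their list too was drawn up with earlier results of these data known, so these 15 genes are not independent of that choice. Only 5 of them passed the filter: Rgs8, Rgs9, Rgs11, Rgs20 and Rgs9bp. Rgs4, Rgs5, Rgs6, Rgs7, Rgs13, Rgs17, Rgs21, Rgs22, Rgsl1 and Rgs7bp did not, and Rgs13 and Rgs21 lie between Rgs2 and Rgs18. Over those above background on all arrays of both groups, limma called 0 of 3 genes for salt without LPS and 2 of 3, both higher, for salt with LPS. With LPS 1 of 3 rose and 1 fell without added salt, and 1 of 2 rose and 0 fell with it. Among all genes above background in both groups, 19.1% rose and 19.1% fell with salt without LPS, and 28.0% and 30.7% with LPS. For LPS the shares were 29.5% and 36.2% without added salt, and 32.0% and 41.9% with it.

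Rgs8, known as a neuronal regulator of potassium channel signalling, was at -5.27, -6.04 and -6.71 in NS, -3.96, -4.44 and -4.02 in HS, -0.98, -1.03 and -0.87 in NS+LPS, and 0.22, 0.06 and 0.17 in HS+LPS. It was above background on 0 NS arrays, 1 HS array and all arrays with LPS. Its groups came in the same order as those of its neighbour Rgs16, but the step from NS to HS rests on signals near background. Rgs8 passed the filter only through the LPS groups, so no p is given for LPS. Without added salt it was at least 14.3-fold higher with LPS, from measured means of -6.01 and -0.96. For LPS with added salt and for salt without LPS, with 1 HS array above background, the values above stand without a fold. A second Rgs8 probe, above background in HS+LPS and not in HS, was at least 5.22-fold higher with LPS there. For salt without LPS this probe gave 0.12 (SE 0.22), also from signals near background. Salt in LPS-treated cells compares groups with all 3 arrays above background. The rise was called for the brighter probe (1.11, SE 0.29, limma adjusted p = 0.00755), while the second probe gave 0.40 (SE 0.22).

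Rgs11, a partner of the G beta subunit Gnb5, was at 3.29, 3.57 and 3.5 in NS, 3.66, 3.69 and 3.43 in HS, 2.42, 2.39 and 2.52 in NS+LPS, and 3.81, 3.39 and 3.68 in HS+LPS. NS+LPS alone was low and the other groups overlapped. Rgs11 fell by 1.01 with LPS without added salt (SE 0.11, limma adjusted p = 2.03e-05) and rose by 1.18 with salt in LPS-treated cells (SE 0.11, limma adjusted p = 1.64e-05). Salt without LPS gave 0.14 (SE 0.11, limma adjusted p = 0.379) and LPS with added salt 0.03 (SE 0.11, limma adjusted p = 0.82). The interaction was 1.04 (SE 0.16, limma adjusted p = 0.000978). Gnb5 had a similar set of differences, and fell by 0.56 with LPS without added salt (SE 0.044, limma adjusted p = 1.35e-06) and rose by 0.47 with salt in LPS-treated cells (SE 0.044, limma adjusted p = 1.47e-05). These directions are not particular to Rgs11 and Gnb5. Arrb1 (-1.68 and 0.90) and Snx25 (-0.64 and 0.84), listed below, shared them in the same comparisons.

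Rgs20, a relative of Rgs19 that acts on Gz, was at 1.94, 1.91 and 1.86 in NS, 2.00, 1.97 and 2.04 in HS, 2.58, 2.48 and 2.54 in NS+LPS, and 2.36, 2.49 and 2.55 in HS+LPS. Both LPS groups were higher and overlapped each other. It rose with LPS by 0.63 without added salt (limma adjusted p = 2e-06) and by 0.46 with it (limma adjusted p = 1.84e-05, SE 0.053 each). These values rest on 1 probe. A second Rgs20 probe was above background on 1 NS+LPS array and 0 arrays of the other groups, and did not pass the filter. Rgs9bp, which anchors Rgs9 to membranes, was above background on only 1 of 3 HS+LPS arrays. Its measured differences there were -0.53 for salt and -0.46 for LPS (SE 0.17 each), and they depend on signals near background. Rgs9 was not called in any of the 5 comparisons, with limma adjusted p from 0.265 to 0.862.

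**Figure D3:**
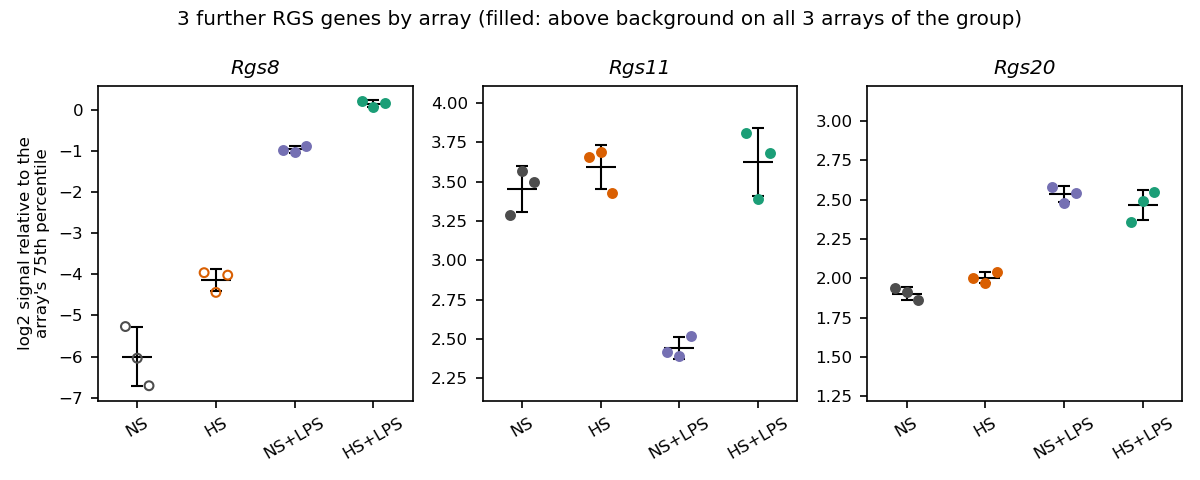
Log2 signal relative to the array's 75th percentile (vertical axes, which differ between panels) of Rgs8, Rgs11 and Rgs20 on the 3 arrays of each group; bars are means, whiskers SDs, and open points mark groups not above background on all 3 arrays. Rgs8 was higher in the LPS groups, Rgs11 low in NS+LPS only, and Rgs20 higher in both LPS groups.

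The genes that RGS proteins work beside were taken from 7 lists with 126 genes, the 15 other RGS genes included, of which 88 were tested. In all, 17 rose and 24 fell with salt without LPS, 31 and 27 with salt with LPS, 34 and 36 with LPS without added salt, and 36 and 31 with LPS with added salt. In all, 46.6%, 65.9%, 79.5% and 76.1% of the 88 were called, where 37.0%, 57.5%, 63.7% and 72.3% of all genes were. These counts include genes that passed the filter only through the group where they are high. Over the 78 to 81 list genes above background on all arrays of both groups, 16 rose and 22 fell with salt without LPS, 30 and 23 with salt with LPS, 29 and 34 with LPS without added salt, and 31 and 29 with LPS with added salt. Of all genes of that kind, 19.1% rose and 19.1% fell with salt without LPS, and 28.0% and 30.7% with salt with LPS. For LPS the shares were 29.5% and 36.2% without added salt, and 32.0% and 41.9% with it.

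Receptors of leukocytes, upstream of the G proteins, had 18 tested genes, of which 12 or 13 were above background in both groups of a comparison. Of 13 such genes 1 rose and 7 fell with salt without LPS, where 19.1% of all genes of that kind rose and 19.1% fell, with a median difference of -0.41 (0.02 over all). With LPS present, 3 of 13 rose and 6 fell with salt, against 28.0% and 30.7% (median -0.18, against -0.02). The complement receptor C3ar1 fell by 1.96 with salt without LPS (SE 0.12, limma adjusted p = 2.29e-06) and by 1.17 with LPS (SE 0.12, limma adjusted p = 1.85e-05). Ptafr, the receptor for platelet-activating factor, fell by 1.35 without LPS (SE 0.079, limma adjusted p = 2.28e-06). C5ar1, which binds complement C5a, was named for its rise with LPS with added salt. With salt without LPS C5ar1 fell by 0.87 (SE 0.11, limma adjusted p = 0.000177), which was not among the 3 largest receptor differences there. With LPS 6 of 12 receptors rose and 4 fell without added salt, against 29.5% and 36.2% (median 0.40, against -0.03), and 7 of 12 rose and 3 fell with it, against 32.0% and 41.9% (median 0.50, against -0.08). The adenosine receptor Adora2b rose by 2.29 with LPS without added salt (SE 0.067, limma adjusted p = 6.85e-10) and Ccrl2, an atypical receptor that binds chemerin, by 2.20 (SE 0.18, limma adjusted p = 1.36e-06). The fractalkine receptor Cx3cr1 fell by 2.57 (SE 0.066, limma adjusted p = 2.5e-10).

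Of 10 G alpha genes tested, the substrates of RGS proteins, 1 rose and 2 fell with salt without LPS. Of the 9 above background in both LPS groups, 3 rose and 4 fell with salt. With LPS 2 of 10 rose and 7 fell without added salt (median -0.36), and 2 of 9 rose and 6 fell with it (median -0.33). Among all genes above background in both groups, 19.1% rose and 19.1% fell with salt without LPS, and 28.0% and 30.7% with LPS. For LPS the shares were 29.5% and 36.2% without added salt, and 32.0% and 41.9% with it. Gnaq, which encodes the Gq subunit, fell by 0.95 with LPS without added salt (SE 0.036, limma adjusted p = 4.48e-09), and its relative Gna11 by 0.71 (SE 0.077, limma adjusted p = 1.47e-05). Gnai2, the main Gi subunit of leukocytes, fell by 0.56 with salt in LPS-treated cells (SE 0.058, limma adjusted p = 2.82e-05) and gave 0.00 without LPS (limma adjusted p = 0.962).

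The 12 tested G beta and gamma genes gave 1 rise and 3 falls with salt without LPS, 3 and 5 with salt with LPS, 5 and 2 with LPS without added salt, and 5 and 1 with LPS with added salt. Over all genes, 37.0%, 57.5%, 63.7% and 72.3% were called in these comparisons. Gng8, a gamma subunit, rose by 1.48 with LPS without added salt (SE 0.11, limma adjusted p = 7.07e-07), and Gng2 by 0.68 (SE 0.049, limma adjusted p = 6.43e-07). Gng12 rose by 0.56 with LPS with added salt, but the mean of its probes was -0.34.

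Accessory and arrestin genes, 12 tested, gave 2 rises and 2 falls with salt without LPS, 4 and 2 with salt with LPS, 5 and 3 with LPS without added salt, and 5 and 4 with it. Beside these counts, 37.0%, 57.5%, 63.7% and 72.3% of all genes were called. Arrb1, which encodes the arrestin that uncouples receptors from G proteins, fell by 1.68 with LPS without added salt (SE 0.058, limma adjusted p = 2.34e-09). It rose by 0.90 with salt in LPS-treated cells (SE 0.058, limma adjusted p = 1.29e-06). Ric8a (Ric8 on the array), a chaperone of G alpha subunits, rose by 0.67 with LPS without added salt (SE 0.031, limma adjusted p = 1.92e-08).

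Other proteins with an RGS homology domain, 12 tested, gave 3 rises and 1 fall with salt without LPS, 5 and 1 with salt with LPS, 3 and 8 with LPS without added salt, and 3 and 6 with it. The shares of all genes called were 37.0%, 57.5%, 63.7% and 72.3%. Grk5, a receptor kinase, rose by 0.97 with LPS without added salt (SE 0.098, limma adjusted p = 8.67e-06), while Grk2 (Adrbk1 on the array), another, fell by 0.66 (SE 0.045, limma adjusted p = 4.54e-07). Snx25, a sorting nexin, rose by 0.84 with salt in LPS-treated cells (SE 0.063, limma adjusted p = 3.05e-06).

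Effectors, 19 tested, gave 8 rises and 7 falls with salt without LPS, 10 and 5 with salt with LPS, 7 and 9 with LPS without added salt, and 8 and 9 with it. In the same order, 37.0%, 57.5%, 63.7% and 72.3% of all genes were called. Plcb4, a phospholipase C beta downstream of Gq, rose by 1.00 with salt without LPS (SE 0.066, limma adjusted p = 4.55e-06) and by 1.60 with LPS (SE 0.066, limma adjusted p = 9.84e-08). Pde4b, which degrades cAMP, fell by 1.20 with salt in LPS-treated cells (SE 0.10, limma adjusted p = 6.21e-06). Pik3r5, a regulatory subunit of the PI3 kinase activated by G beta gamma, fell by 1.03 with LPS without added salt (SE 0.042, limma adjusted p = 7.12e-09).

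**Figure D4:**
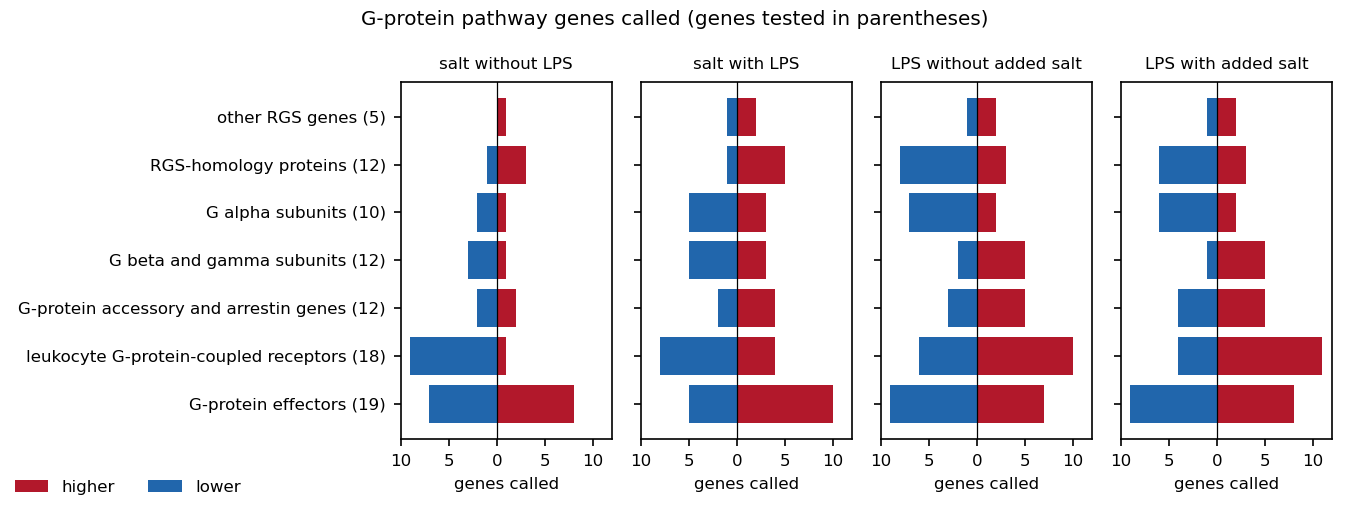
Number of genes called higher (bars to the right) and lower (bars to the left) in each of the 7 lists for the 4 comparisons, at a limma adjusted p under 0.05 with 3 arrays per group; tested genes are in parentheses. Over all 18 tested receptors, those dim in 1 group included, 1 was called higher and 9 lower with salt without LPS, where 18.2% and 18.8% of all genes were, and 10 higher and 6 lower with LPS without added salt, where 28.6% and 35.1% were.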

How the data were processed

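RNA of 12 samples was measured on 1-colour Agilent mouse arrays. The deposited scanner values are linear intensity, from which Feature Extraction 10.7.3.1 had subtracted background and spatial trend, per the file headers. The flags for outliers, saturation and signal above background are 0 or 1. The deposited value table holds intensity too, used here on a log2 scale as an alternative. Groups come from the titles.

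The log2 of the processed signal was set relative to the array's 75th percentile over 59305 non-control spots. Outlier spots were left out, 10 probes lost their value, 0 spots were saturated, and repeated spots were averaged to 55681 probes, 33256 with a symbol and 27509 with an accession matched to RefSeq. A probe was kept if some group had it well above background on each of its 3 arrays, and the brightest stood for a gene (3984 of 13860 genes had several). limma 3.58.1 in R 4.3.3 fitted 12 arrays (8 residual degrees of freedom), 2-sided, with Benjamini-Hochberg adjustment over all genes. The method was run on simulated data with 200 genes changed and no slide effect. That setting differs from these arrays, so it does not vouch for the calls here. Python 3.11.15 and matplotlib 3.10.9 drew the figures.

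The 9 genes and all lists were chosen with earlier results of these data known. Named beside them are, per list and comparison of 2 groups, genes from the up to 3 called genes with the largest differences among those above background in both groups, every other RGS gene, and the 3 genes most correlated with each of the 3 widest-ranging members. The complement receptor C3ar1 was reached by both. Gng12 was named for its probes. Interactions were tested as the salt difference with LPS minus that without.

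Alternatives were normexp background correction (offset 50), quantile and cyclic loess normalization, the deposited table, no filter, averaging a gene's probes, a stricter filter over all 12 arrays, an intensity trend, fits of only the groups compared, a replicate block, a slide block, the arrays of the shared slide, and each array left out in turn. Promoters came from a RefSeq table on GRCm38.p6; probe coordinates are mm9. The number of arrays, 3 per group, limits the precision of the differences.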

Additional observations from a re-analysis of the deposited data

Results flagged for a closer look

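Results were looked at for salt differences that differed with and without LPS. By limma's interaction term, the salt difference with LPS minus that without differed for the genes below. HS+LPS shared a slide with none of the other groups and had a different scan day. So the slide, the scan day and the combined treatment cannot be told apart in any of these values. Groups of 3 arrays were too small to look for single outlying arrays.

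Of the 8 measured members, 5 had such a difference, where 36.2% of all genes did. The members are given with no p because these values chose them. The interaction was 0.83 for Rgs1, -0.70 for Rgs2, 0.35 for Rgs10, -0.62 for Rgs14 and -0.32 for Rgs19. Rgs1 was less far below its control with LPS and Rgs2 farther below, while Rgs14 differed from its control with LPS (-0.59) and gave 0.03 without. For Rgs10 and the brightest Rgs19 probe the sign changed, but each call without LPS was lost in several settings, 9 for Rgs10 and 19 for Rgs19. Another Rgs19 probe gave an interaction of -0.05 with no change of sign, and both Rgs2 probes averaged gave -0.20.

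Of the other RGS genes, Rgs11 had an interaction of 1.04 (limma, adjusted p = 0.000978). That of Rgs9bp was -0.77, with the probe above background on only 1 of 3 HS+LPS arrays.

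Of the 88 list genes tested, 38 (43.2%) had a called interaction, where 36.2% of all genes did (limma, adjusted p under 0.05). Those among the genes named for their large differences, which is not a random choice, are given here. Receptors gave 0.78 for C3ar1, 0.64 for Ptafr, -0.79 for Ccrl2 and -0.83 for Adora2b. The G-protein subunits gave -0.56 for Gnai2, 0.27 for Gnaq, -0.38 for Gna11 and 0.54 for Gnb5. Regulators gave 0.62 for Arrb1, -0.23 for Ric8 and 0.46 for Snx25. Effectors gave 0.60 for Plcb4, -0.75 for Pde4b and 0.28 for Pik3r5.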

How the results depend on the processing

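Counts of genes, members and list genes called stayed within 1.5 times the reported count in 338 of 339 alternative values. The exception was the number of members with a called interaction, 5 as reported and 8 with normexp background correction. Of all 13860 genes, 5019 and 5051 had a called interaction, in the same order. Of 904 alternative values of member differences, 0 turned a called difference round and 51 moved by more than the spread between replicates. Of 1768 for named genes of the lists, 11 lost their call and 1 reversed, Gng12 for LPS with added salt, at -0.34 with the mean of its probes.

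Leaving out each array gave 4 to 6 members called for salt without LPS, 8 for salt with LPS, 5 to 7 for LPS without added salt, 7 to 8 for LPS with added salt and 5 to 6 for the interaction. Over the same fits, 3879 to 5114 of the 13860 genes were called for salt without LPS and 7102 to 8046 for salt with LPS. For LPS it was 8177 to 8844 without added salt and 9516 to 10050 with it, and for the interaction 4168 to 4792.

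Cyclic loess shifted the median difference of all genes by 0.14 for LPS with added salt, where 42.2% of calls were higher as reported and 54.4% with loess. For the interaction 48.0% of calls were above 0 as reported, 58.2% with quantile normalization and 61.2% with loess.

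No clear pairing by replicate number was seen. Over 18 pairs of same-numbered arrays the correlation of deviations ran from -0.20 to 0.12, with 2 over 0.1. The labels do not say whether same-numbered arrays were prepared together, so a pairing may still exist. With the replicate block, 4705 genes were called for salt without LPS against 5130. The block ended the member calls of Rgs10 (-0.12) and Rgs19 (0.13) for salt without LPS and of Rgs19 (-0.13) for LPS without added salt.

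Salt differences of Rgs10 and Rgs19 without LPS lie near what 3 arrays per group resolve. HS+LPS has no within-slide value, and signals near background, as for Rgs8 without LPS and Rgs9bp in HS+LPS, are imprecise.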
